A study of Mus musculus with 12 samples.

Results

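The genes described here encode the TEAD transcription factors (Tead1, Tead2, Tead3, Tead4) and the proteins that partner or restrain them: the coactivators Yap1 and Wwtr1 (TAZ), the vestigial-like cofactors Vgll2, Vgll3 and Vgll4, and the angiomotin Amotl2. A peak of accessible chromatin counted for a gene if the gene's annotated body, extended by 10 kb on each side, contained the peak centre. This gave 44 of the 34118 peaks of wild-type (WT) cells and 34 of the 27187 peaks of Runx1 knockout (Runx1KO, here KO) cells, at 9 of the 10 genes. The cells were C2C12, an established mouse myoblast line, assayed by ATAC-seq, in which the Tn5 transposase tags open DNA. The WT and the KO group each had 3 samples at day 0 in growth medium with 20% serum, and both are the same cell line. The labels do not say how the Runx1 allele was made or whether the KO cells are a single clone. The peak intervals, folds and q-values all came from 1 library of each genotype (replicate 1), so no value below has a replicate error and no test between the genotypes was possible. The library depth is unknown.

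TEAD proteins bind DNA at the letters CATTCC, known in muscle as the MCAT element, but they activate transcription only with a partner. YAP and TAZ are such partners. The Hippo kinases keep them in the cytoplasm, and in proliferating muscle precursors active YAP favours division over differentiation. Vestigial-like proteins dock on the same face of TEAD: VGLL4 competes with YAP, whereas VGLL2 and VGLL3 are tied to the skeletal muscle programme. Angiomotins hold YAP at cell junctions. Runx1 encodes a RUNX factor, whose family binds the letters TGTGGT.

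The promoters are shown first because the letters bound by TEAD proteins occur in the promoters of most of these genes, several of them inside an open region. RefSeq promoter windows (GRCm38.p6, 250 bases before to 50 after a start) were matched for 8 genes, 11 windows in all, and Tead1 and Tead4 were not analysed here in this respect. The 250 bases before the start are printed for the 5 genes whose window lay under a peak of both genotypes, 5′ to 3′ along the gene, with matches to the TEAD letters GGAATG (or CATTCC on the other strand) and to the RUNX letters TGTGGT (or ACCACA) in capitals.
Tead3 chr17:28350806-28351055 (minus strand): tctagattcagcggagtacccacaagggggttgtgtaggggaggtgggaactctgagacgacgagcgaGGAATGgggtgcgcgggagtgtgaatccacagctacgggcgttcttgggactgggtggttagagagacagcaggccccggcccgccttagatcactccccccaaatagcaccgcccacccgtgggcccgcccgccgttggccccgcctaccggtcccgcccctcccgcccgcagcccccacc
Yap1 chr9:8004597-8004846 (minus strand): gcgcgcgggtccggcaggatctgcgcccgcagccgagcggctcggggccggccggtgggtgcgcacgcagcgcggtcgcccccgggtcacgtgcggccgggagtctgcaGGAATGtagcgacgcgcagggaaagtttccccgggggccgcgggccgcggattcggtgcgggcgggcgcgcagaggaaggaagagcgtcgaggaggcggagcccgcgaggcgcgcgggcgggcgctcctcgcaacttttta
Wwtr1 chr3:57575911-57576160 (minus strand): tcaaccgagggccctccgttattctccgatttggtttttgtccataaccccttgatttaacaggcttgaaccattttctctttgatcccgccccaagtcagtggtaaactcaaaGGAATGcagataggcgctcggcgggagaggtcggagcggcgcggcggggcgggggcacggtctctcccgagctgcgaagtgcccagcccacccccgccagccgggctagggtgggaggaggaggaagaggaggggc
Vgll3 chr16:65814939-65815188 (plus strand): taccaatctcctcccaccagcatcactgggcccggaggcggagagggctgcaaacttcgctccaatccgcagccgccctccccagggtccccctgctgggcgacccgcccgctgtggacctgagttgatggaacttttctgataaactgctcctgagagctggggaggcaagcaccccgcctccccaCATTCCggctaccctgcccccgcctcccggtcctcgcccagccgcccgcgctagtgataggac
Amotl2 chr9:102717554-102717803 (plus strand): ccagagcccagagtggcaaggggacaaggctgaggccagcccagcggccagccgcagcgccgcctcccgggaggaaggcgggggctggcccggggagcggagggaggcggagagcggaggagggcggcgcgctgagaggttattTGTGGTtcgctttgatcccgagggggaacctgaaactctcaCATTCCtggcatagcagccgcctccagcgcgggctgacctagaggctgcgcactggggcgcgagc

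Each of these 5 stretches held 1 TEAD match, and each match lay inside a WT peak and inside a KO peak. At Yap1, Wwtr1, Vgll3 and Amotl2 that position was fixed in advance. Those stretches were chosen for a peak, which covered the whole window in both lists. Counted in bases before the start, the match began at 182 in Tead3, 141 in Yap1, 136 in Wwtr1, 63 in Vgll3 and 65 in Amotl2. The Amotl2 stretch also held the only RUNX match, which began 106 bases before the start. Matches outside peaks were found at a further Tead3 start and at Vgll4. They are shown as 30 bases each because the Tead3 site is a pair of matches whose first bases lie 9 bp apart (a further match followed that start).
Tead3 chr17:28350701-28350730 (minus strand): ccgggctCATTCCgtaCATTCCggccatcc
Vgll4 chr6:114969268-114969297 (minus strand): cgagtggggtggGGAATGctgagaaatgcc

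The Tead3 stretch ended 137 bp from the WT peak and 147 bp from the KO peak over the neighbouring start, so it lay just outside both. The stretch of Vgll4 was 29239 bp from the nearest WT peak and 47301 bp from the nearest KO peak. In all, 6 of 8 genes had a TEAD match in at least 1 window, and Tead2 and Vgll2 had none. Of 17274 protein-coding genes with a window, 15.4% had such a match. Tead3 has 3 windows and Wwtr1 2, which overlap, so these genes had more chances than a gene with 1 window. RUNX letters were present at 1 of 8 genes (Amotl2), against 17.0% of protein-coding genes. Neither the AP-1 letters TGANTCA nor the E-box letters CAGCTG occurred in any of the 11 windows, and they occurred in 8.19% and 17.6% of protein-coding genes. The ETS letters CCGGAA occurred at Tead3 and Vgll3, against 21.2% of protein-coding genes. Both of these ETS matches overlapped a TEAD match of the same window, so they are not separate stretches. Among the 9653 windows under a WT peak, 11.3% held the TEAD letters and 12.4% the RUNX letters. The AP-1 letters were in 5.36% of them, the E-box letters in 14.8% and the ETS letters in 32.5%. These are matches of letters on both strands and say nothing about binding.

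**Figure D1:**
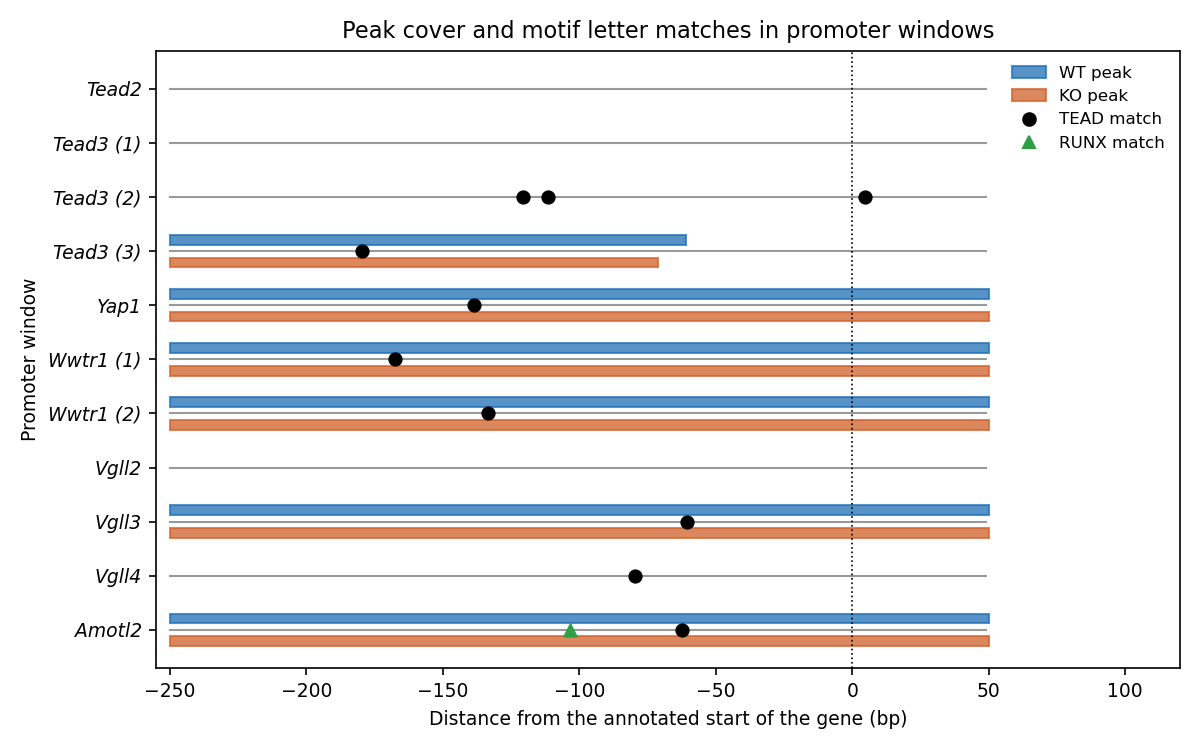
Position of peak cover (bars) and of TEAD and RUNX letter matches (symbols) in the 11 promoter windows, in bp from the annotated start. Windows of Yap1, Wwtr1, Vgll3 and Amotl2 were covered whole in both genotypes, the upstream part of 1 Tead3 window was covered, and those of Tead2, Vgll2, Vgll4 and the other Tead3 starts were not.

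A peak lay over a promoter window of 5 of the 8 genes in the WT list and of the same 5 in the KO list. Among all protein-coding genes with a window, 43.0% had a WT peak there and 39.5% a KO peak. The Wwtr1 promoter peak was the strongest of the 5, with a deposited fold of 12.6 over background and a −log10 q of 41.0 in WT, and 10.2 and 34.5 in KO. Both values are the authors' own and can depend on depth, so they are set side by side and only ranked within a list. Peaks are called strongest or weakest by their −log10 q, and the order by fold can differ. Vgll3 followed, with a fold of 10.7 and a −log10 q of 35.4 in WT and 8.36 and 27.1 in KO. The Yap1 promoter peak was the weakest, at 13.6 in WT and 13.0 in KO on the −log10 q scale, below the medians of the whole lists (16.1 and 17.6).

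Across the 10 genes, 33 of the 44 WT peaks were shared and 11 were WT specific (25%, exact binomial 95% interval 13.2 to 40.3). Over all WT peaks the specific share was 27.3%, and over WT peaks in or within 10 kb of a protein-coding gene 25.6%. Of the 34 KO peaks, 2 were KO specific (5.88%, interval 0.720 to 19.7), against 9.59% of all KO peaks and 7.95% of those near protein-coding genes. The shares of both lists were therefore near the background. The intervals cover counting error only, and peaks of a gene are not replicates. The KO list held 77.3% as many peaks as the WT list at these genes and 79.7% over the genome.

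By role, the 4 TEAD genes held 17 WT peaks, of which 4 were WT specific, and 14 KO peaks, of which 1 was KO specific. The coactivators had 9 WT peaks with 2 WT specific, and 7 KO peaks, all shared. The 3 vestigial-like genes had 12 WT peaks with 3 WT specific, and 10 KO peaks with 1 KO specific. Amotl2 had 6 WT peaks with 2 WT specific and 3 KO peaks, all shared. No role was free of WT specific peaks, and Tead3, Yap1 and Vgll2 had shared peaks only.

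**Figure D2:**
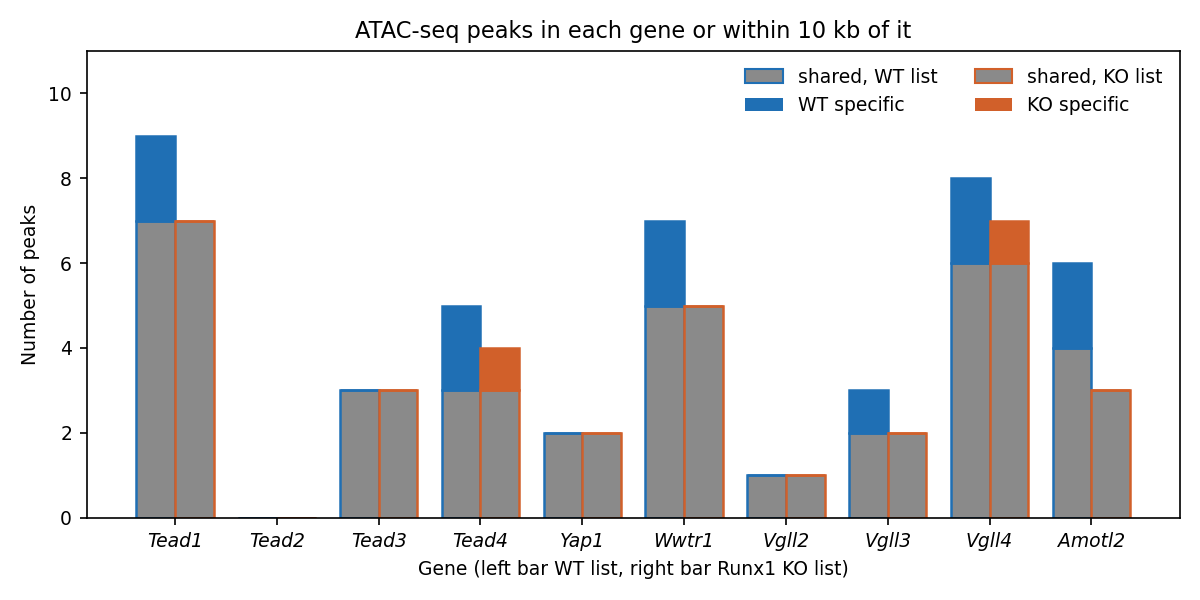
Number of peaks at each gene in the WT list (left bars) and the KO list (right bars), split into shared (grey) and specific (coloured). Tead1 had 9 WT and 7 KO peaks, Tead2 none, and KO specific peaks appeared at Tead4 and Vgll4.

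Of the 9 genes with a WT peak, 6 had a WT specific one: Tead1, Tead4, Wwtr1, Vgll3, Vgll4 and Amotl2. Among all protein-coding genes with a WT peak the share was 39.1%, and among all protein-coding genes 25.3%. The listed genes are longer than most, with a median length of 61.9 kb against 17.3 kb for protein-coding genes, and a longer gene can hold more peaks. KO specific peaks were found at 2 of 10 genes, against 7.46% of protein-coding genes. Scaled to the window of the gene and its flanks, Amotl2 was the densest with 16.5 WT peaks per 100 kb, followed by Tead3 with 7.67, Vgll4 with 6.18, Tead4 with 5.34, Wwtr1 with 4.99, Vgll3 with 4.21, Vgll2 with 3.85, Tead1 with 3.64 and Yap1 with 2.16. Tead2 had no peak. The median of all protein-coding genes was 2.21 WT peaks per 100 kb, and that of protein-coding genes with a WT peak was 3.80. Tead1 and Yap1 lay below the latter, and Vgll2 was close to it. With a single library of values per genotype, the order has no spread to judge it by.

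Tead1 (chr7:112679356-112906784), which encodes the founding member of the family (TEF-1), had 9 peaks in WT, the most of the 10 genes, and 7 in KO, as many as Vgll4. All 7 KO peaks had a WT partner. The peak over the end of the gene with the lower coordinate, at chr7:112678845-112679409 in WT, had a −log10 q of 13.8 in WT and 16.6 in KO. Both values were below the medians of the whole lists (16.1 and 17.6). The strongest peaks lay inside the gene. At chr7:112720103-112720582 the fold was 16.4 and the −log10 q 51.8 in WT, and 13.3 and 40.3 in KO. The peak at chr7:112696988-112697343 had a −log10 q of 42.6 in WT and 32.0 in KO. These 2 internal peaks ranked first and second of the gene in each list.

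Just past the other end of Tead1, both peaks of the region were WT specific. The first, at chr7:112906897-112907332, had its centre 0.331 kb from the gene end, a fold of 12.7 and a −log10 q of 28.7. It stood above 75.5% of the WT list and above 99.0% of the WT specific peaks (rank 91 of 9318), and was the strongest specific peak of the 10 genes. The second, at chr7:112909208-112909485, had a fold of 6.98 and a −log10 q of 10.9. The nearest KO peak lay 22.7 kb from the first and 25.0 kb from the second. Between the retained KO peaks on either side, 6 numbers were missing from the running numbers in the KO peak names, and the positions of those calls are unknown. The last shared peak inside the gene, at chr7:112883851-112884254, had a −log10 q of 12.9 in WT and 3.55 in KO, the lowest of the KO peaks at these genes. A WT specific peak with a −log10 q of 4.19 lay 11.3 kb from the gene, just beyond the window.

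Tead4 (chr6:128227143-128300813) encodes the member that is induced by myogenic factors. It had 5 WT peaks and 4 KO peaks, and was 1 of 2 genes with specific peaks of both genotypes. The WT specific peaks lay at chr6:128285863-128286200 inside the gene (fold 6.13, −log10 q 7.98) and at chr6:128308386-128308602, 7.68 kb past the gene end (fold 6.31, −log10 q 6.51). The KO specific peak lay at chr6:128282321-128282590, with a fold of 7.17 and a −log10 q of 14.2. The internal WT specific and the KO specific peak were 3.27 kb apart, and neither had a retained call of the other library within that distance. All 3 specific peaks were below the median −log10 q of their list. The shared peak over the gene end at chr6:128300418-128300883 had a −log10 q of 21.2 in WT and 22.9 in KO. Which shared peak was highest differed between the lists: in WT it was chr6:128275602-128276014, with a −log10 q of 33.7 in WT and 21.0 in KO, and in KO the peak at chr6:128265159-128265552, with 28.9 in WT and 37.0 in KO.

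Tead3 (chr17:28331671-28350805) had 3 peaks in each list, all shared. The WT peak with the highest −log10 q, at chr17:28327753-28328696, had 28.2 in WT and 15.5 in KO. Its nearest gene end belonged to Rpl10a, a ribosomal protein gene whose body it overlapped, and it was the only WT peak of the 44 with another gene's end nearest. The peak in the gene body, at chr17:28340647-28341444, had 20.5 in WT and 27.8 in KO and was the highest of the KO list. The promoter peak, at chr17:28350867-28351182, had 20.1 in WT and 14.7 in KO. The order of the 3 peaks by −log10 q thus differed between the lists, while the set was the same.

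Tead2 (chr7:45215792-45233468) had no peak in either list, the only such gene of the 10. Of protein-coding genes 64.6% had a WT peak and 60.8% a KO peak. The nearest peak was a shared one at chr7:45191969-45192384, 23.6 kb away in WT (23.7 kb in KO), with a −log10 q of 9.53 in WT and 9.13 in KO. The gap without a WT peak ran from that peak over 94.2 kb, and the gap without a KO peak over 141 kb. No call number was missing across the gap in WT or in KO. An accessible site too weak to be called was not detectable in these lists.

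Yap1 (chr9:7931999-8004638), the gene of the coactivator YAP, had 2 shared peaks in each list although it is 72.6 kb long. Both lay at its start. The promoter peak at chr9:8004387-8004887 had a fold of 8.32 in WT and 7.75 in KO. The peak at chr9:8003361-8003764, 1.03 kb into the gene, had a −log10 q of 17.0 in WT and 11.03 in KO. No peak was found in the remainder of the gene, and outside its window the next peak lay 95.04 kb away in WT and 95.03 kb away in KO.

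Wwtr1 (chr3:57455644-57575910), which encodes TAZ, had 7 WT and 5 KO peaks spread over the gene. The 5 shared peaks included the promoter and 4 sites in the gene body between 48.5 and 105 kb from the start. Of these, chr3:57501619-57502091 had the highest −log10 q, 29.4 in WT and 35.9 in KO, the latter the highest of the gene in that list. Its fold was 11.03 in WT, below the 12.9 at chr3:57527287-57527471, and 11.8 in KO. The promoter peak had the highest −log10 q in WT. The WT specific peaks lay at chr3:57504823-57505070 (fold 6.43, −log10 q 11.2) and chr3:57554609-57554762 (fold 4.57, −log10 q 3.64), the latter with the lowest −log10 q of all 44 WT peaks. The former was 2.72 kb from the nearest KO peak, and no KO call number was missing beside it. The coactivators thus differed in layout: the peaks of Yap1 were confined to its start, and those of Wwtr1 ran through the gene in both lists.

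Vgll4 (chr6:114860621-114970007), which encodes the antagonist of YAP, held the peak with the highest −log10 q of the set in both lists, though not the highest fold. At chr6:114888834-114889384, 80.1 kb from the annotated start, the fold was 14.1 and the −log10 q 71.7 in WT (rank 862 of 34118), and 11.6 and 55.3 in KO (rank 1168 of 27187). A neighbour at chr6:114893898-114894402 had a −log10 q of 43.8 in WT and 35.8 in KO. The shared peak at chr6:114861181-114861397, 0.668 kb inside the far end of the gene, had 35.1 in WT and 44.4 in KO. Vgll4 had specific peaks of both genotypes. Those of WT lay at chr6:114904332-114904542 (fold 5.64, −log10 q 6.86) and chr6:114939693-114940029 (fold 8.39, −log10 q 11.5), and that of KO at chr6:114866106-114866382 (fold 4.57, −log10 q 6.26). All 3 were weaker than the 4 strongest shared peaks of the gene in their list. The shared WT peak at chr6:114917900-114918071, with a −log10 q of 5.90, was weaker than both WT specific peaks. The KO specific peak was weaker than every shared KO peak of the gene.

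Vgll3 (chr16:65815189-65866368) had 3 WT and 2 KO peaks. Besides the promoter, the shared peak at chr16:65818842-65819246, 3.86 kb into the gene, had a −log10 q of 29.9 in WT and 24.4 in KO. The WT specific peak at chr16:65868085-65868292 lay 1.82 kb past the gene end, with a fold of 8.28 and a −log10 q of 10.4. The nearest KO peak was 41.6 kb away and no KO call number was missing around it. Vgll2 (chr10:52022502-52028471), a cofactor of skeletal muscle, had a single shared peak 3.64 kb before its start, at chr10:52018600-52019133, with a −log10 q of 9.82 in WT and 12.8 in KO. Its promoter had no peak in either list.

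Amotl2 (chr9:102717091-102733418) was the most densely covered gene. The promoter peak at chr9:102717193-102717961, with the TEAD and RUNX letters, had a fold of 8.72 and a −log10 q of 27.1 in WT. The KO peak there, at chr9:102717243-102718575, had a fold of 7.73 and a −log10 q of 24.0 and was 1333 bp wide. It overlapped most of the WT promoter peak and contained a WT neighbour at chr9:102718251-102718531 (−log10 q 15.5). For this reason 33 WT but 32 KO peaks of the set were shared. The WT specific peaks, at chr9:102724162-102724363 (fold 4.30, −log10 q 4.97) and chr9:102731240-102731408 (fold 4.39, −log10 q 4.84), stood above 6.59% and 6.22% of the WT list. A stronger WT specific peak, with a −log10 q of 20.2, lay 13.4 kb past the gene end at chr9:102746705-102746985, outside the window.

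**Figure D3:**
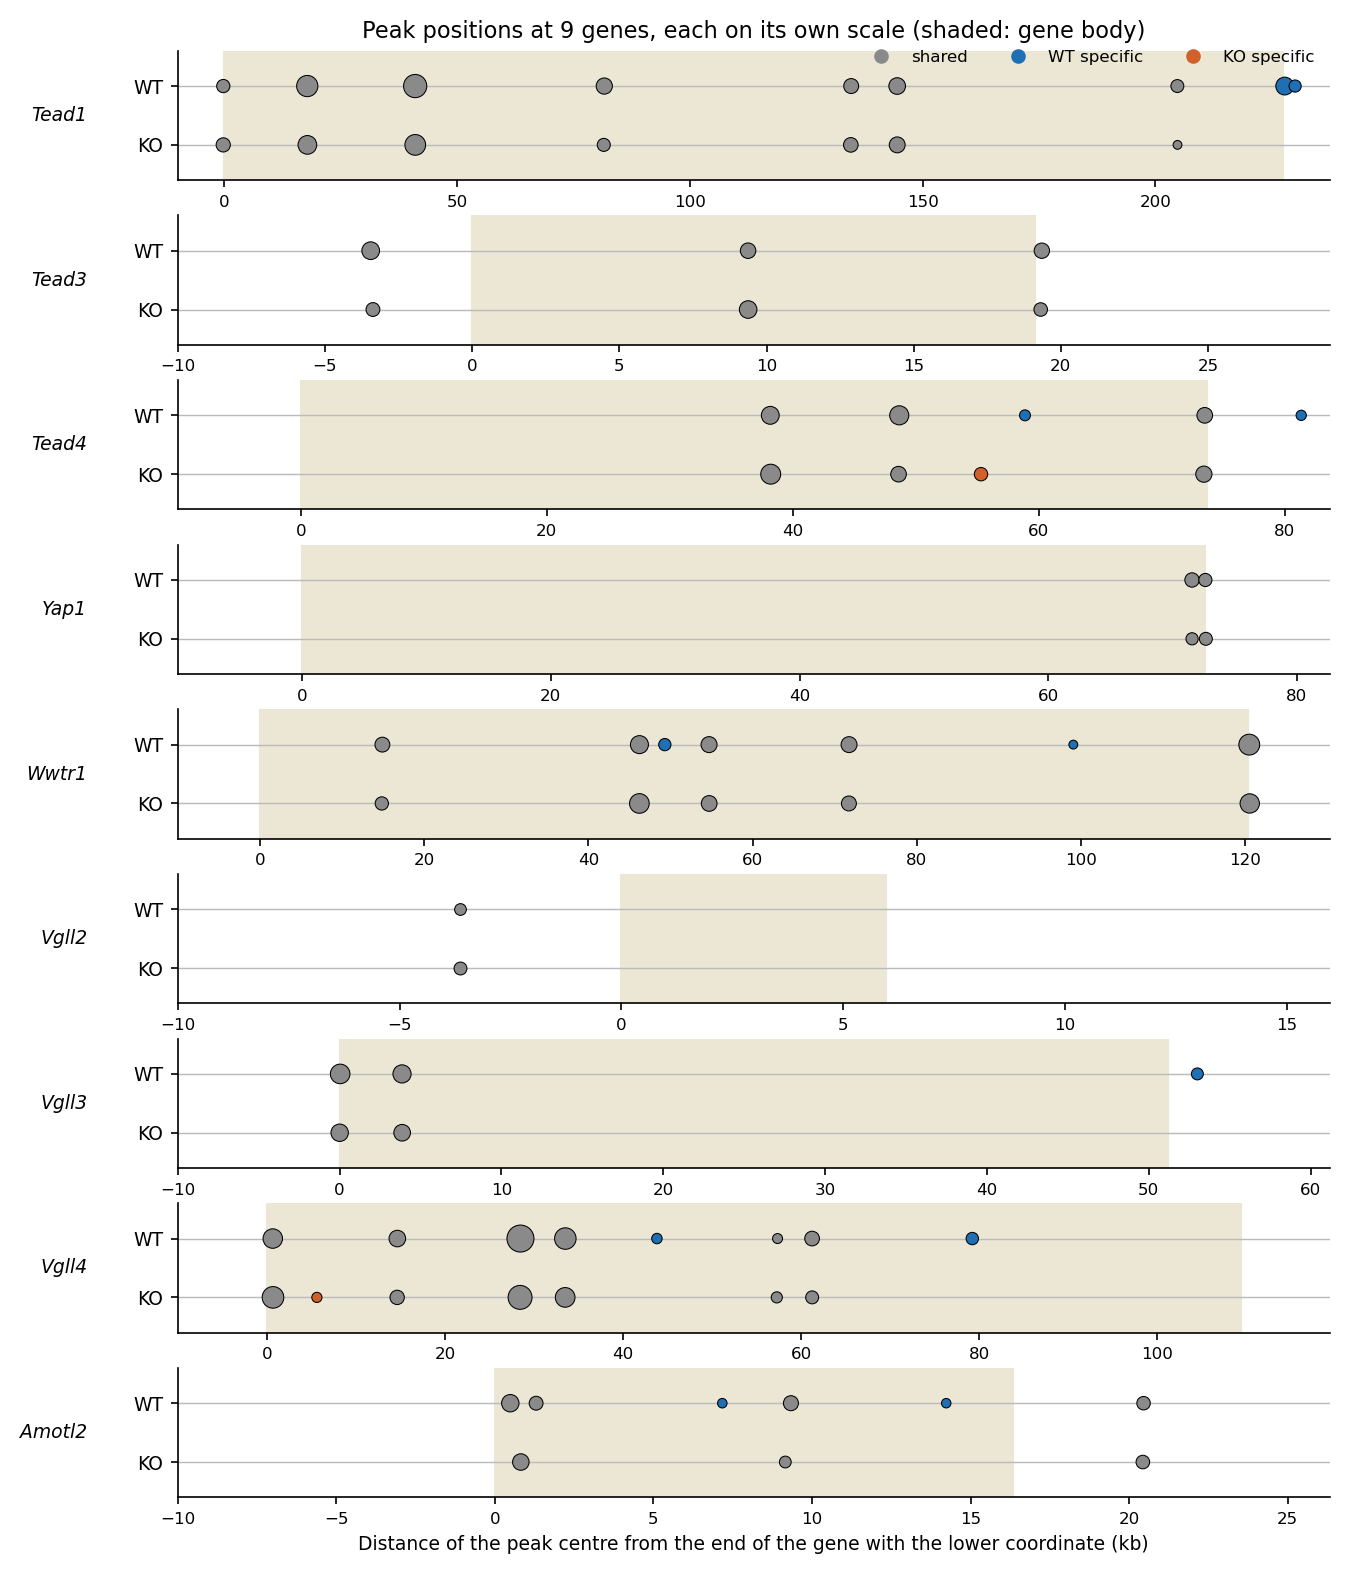
Position of each peak at the 9 genes with peaks, in kb from the end of the gene with the lower coordinate, for the WT list (upper row) and the KO list (lower row) of each gene. The area of a circle grows with the −log10 q within its list, shading marks the gene body, and the specific peaks (coloured) of Tead1 and Vgll3 sit past the gene ends while the 2 of Yap1 are shared and lie at its start.

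Specific peaks were mostly weak within their list. Among the 11 WT specific peaks the −log10 q ranged from 3.64 to 28.7 with a median of 7.98, and among the 33 shared WT peaks from 5.90 to 71.7 with a median of 22.2. The corresponding medians over the whole WT list were 8.38 and 21.1. Of the 27 WT peaks at or above the list median, 1 was WT specific (the peak past Tead1), against 6.17% of all WT peaks of that strength. Of the 17 below it, 10 were WT specific (58.8%), against 48.5%. In KO none of the 18 peaks at or above the list median was KO specific, and the background was 1.45%. A count of 0 of 18 allows a share of up to 16.7%. That limit is approximate (3 divided by the number of peaks) and treats the peaks as independent. Below the median the count was 2 of 16 (12.5%, against 17.7%).

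**Figure D4:**
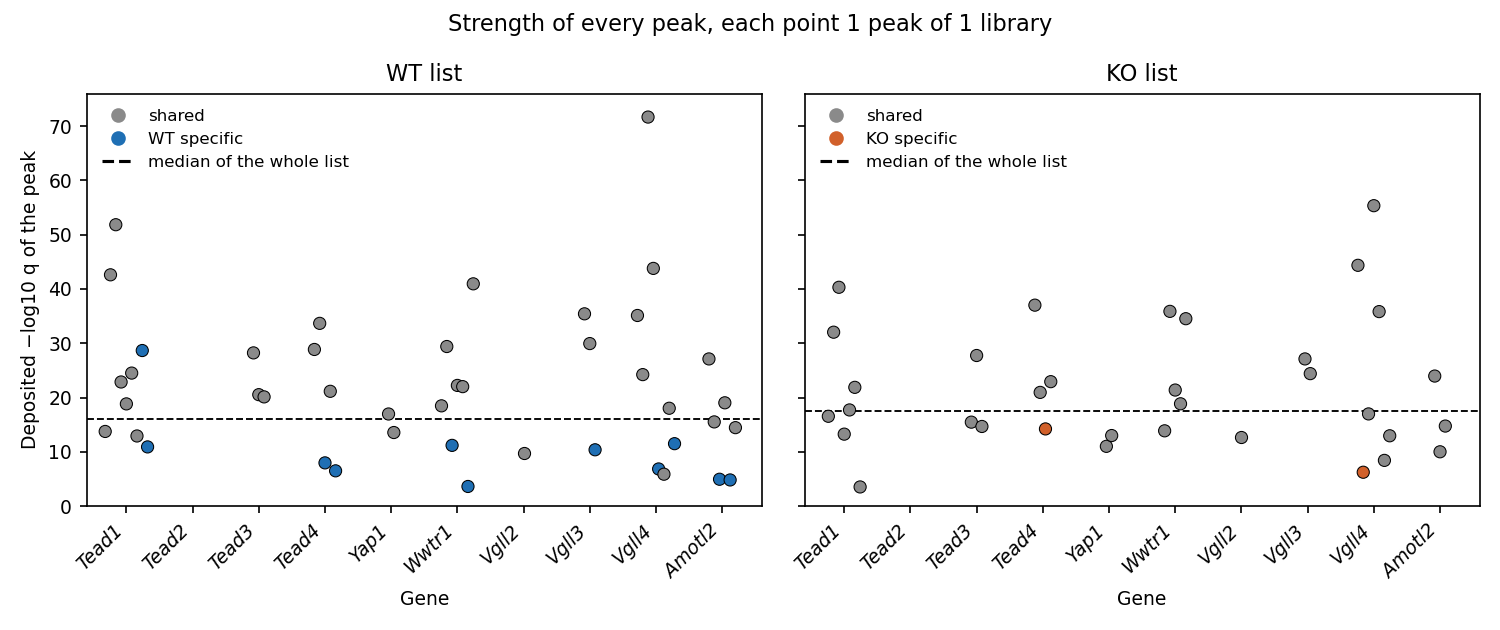
Deposited −log10 q of every peak at each gene in the WT list (left) and the KO list (right), with the median of the whole list as a dashed line. Of the 11 WT specific peaks, only the one at Tead1 with a value of 28.7 lies above the WT median of 16.1, and the highest point of each panel is at Vgll4 (71.7 and 55.3).

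None of the 11 WT specific peaks spanned an end of its gene or touched a promoter window, and 7 of the 33 shared WT peaks did. By the same approximate limit, 0 of 11 allows a share of up to 27.3%. The difference between these counts was not tested. The same counts over the whole WT list were not computed. Neither these counts nor the split by gene body that follows can therefore be called particular to these genes. Inside the gene bodies lay 7 of the 11, and 4 lay outside (2 past Tead1 and 1 each past Tead4 and Vgll3). For all 11 the nearest end of a protein-coding gene belonged to the listed gene. The distance to the nearest KO peak ranged from 1.64 to 41.6 kb. Beside 9 of the 11 at least 1 KO call number was missing, and over all WT specific peaks this was so for 87.1%. Both KO specific peaks lay beside a missing WT number (87.4% of all). Absence from a list therefore does not show that a site was closed.

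Overlapping WT and KO peaks formed 33 pairs. Their summits were a median of 32 bp apart, against 31 bp over all 24900 pairs of the lists, and within 50 bp in 24 of 33 (72.7%, against 68.0%). The KO peak was the wider in 21 of 33 pairs (63.6%, against 52.9% of all pairs), with a median difference of 29 bp against 7 bp. At Tead1, 6 of the 7 KO peaks were wider than their WT partner, by 19 to 285 bp, and the last was narrower, with 158 bp in KO and 404 bp in WT. At Vgll4 the peak at the far end was 217 bp wide in WT and 493 bp in KO, with its summit at the same base, while the peak at chr6:114874915-114875643 was 729 bp in WT and 375 bp in KO. Edges of a called peak move with depth, which is unknown.

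**Figure D5:**
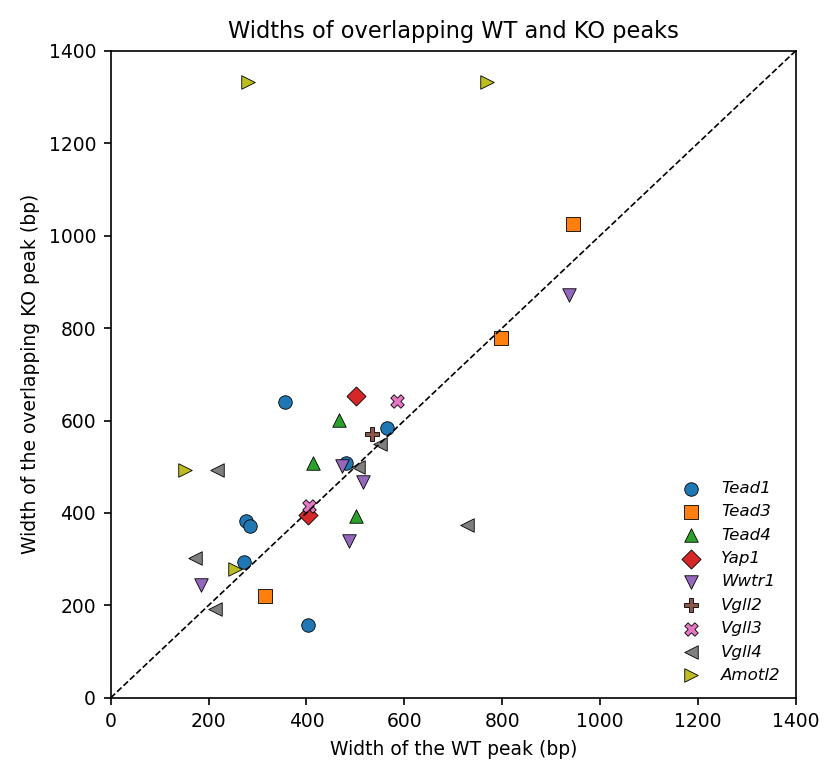
Width of each KO peak against the width of the WT peak it overlaps, in bp, for the 33 pairs at the 9 genes (symbols). The dashed line marks equal width, 21 pairs lie above it, and the 2 highest points are the KO peak of 1333 bp at Amotl2 that overlaps a pair of WT peaks.

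Other genes of the Hippo pathway were set beside these, 25 in number: kinases and scaffolds, junction proteins and targets of YAP. All but Vgll1 had a peak in each list. Of their 90 WT peaks 20 were WT specific (22.2%), at 10 genes, against 27.3% of all WT peaks and 25.6% of those near protein-coding genes. Of their 74 KO peaks 5 were KO specific (6.76%), at 5 genes, against 9.59% of all KO peaks and 7.95% of those near protein-coding genes. No interval was computed for these shares. Among the core kinases, Lats1, Stk3 and Stk4 had shared peaks only, and Lats2 had 1 WT specific peak among 4. Shared peaks only were also found at Sav1, Mob1a, Mob1b, Nf2, Frmd6, Fat4 and Dchs1, and Amot had 1 WT specific peak among 3. The genes with at least 2 specific peaks were as follows. Amotl1, a paralogue of Amotl2, had 4 WT specific peaks among 9. Wwc2 had 3 of 8, Ajuba 3 of 5, Wwc1 2 of 5, Ptpn14 2 of 5 with 1 KO specific peak, Limd1 2 of 3 with 1 KO specific peak, and Taok3 1 of 4 with 1 KO specific peak.

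Among targets of YAP, Ankrd1 and Ccn2 (CTGF) had shared peaks only, and Axl had 6 shared WT peaks and 1 KO specific peak. Ccn1 (CYR61) had 1 WT specific peak among 4, at chr3:145640614-145641000, which lay 6.16 kb outside the gene. Its fold was 11.5 and its −log10 q 34.1, the highest of the gene and rank 30 of the 9318 WT specific peaks. The nearest KO peak was 8.66 kb away and 3 KO call numbers were missing beside it. This peak was named after its values had been seen.

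Tead1, Tead4, Wwtr1, Vgll4 and Amotl2 tied for the most WT specific peaks, with 2 each, a tie that depended on the rules: with a reciprocal overlap of 50% Amotl2 had 4, and with windows of 50 kb Tead1 had 4. Genes with the same numbers of WT specific, KO specific and shared WT peaks were counted over the 21631 protein-coding genes, a likeness over 1 library of each genotype. There were 10 such genes for Tead1, 18 for Tead4, 34 for Wwtr1, 8 for Vgll4 and 65 for Amotl2. The nearest in length were Arhgef3 for Tead1, Pank1 for Tead4, Mprip for Wwtr1, Ndst1 for Vgll4 and Trappc3 for Amotl2.

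The lists were also read at Runx1 and at markers of cell types. Runx1 had 19 WT and 12 KO peaks, 7 and 0 of them specific, which does not check the knockout itself. Of 8 myoblast markers 6 had a WT peak, including Myod1, Des and Cdh15, and Myf5 and Msc had none. Over all protein-coding genes the share with a WT peak was 64.6%, so this count is no check of the cell type. Markers of other types were not all without peaks: 1 of 4 blood, 2 of 4 neuronal, 3 of 4 adipocyte, 4 of 4 endothelial and 1 of 4 epithelial or endodermal markers had a WT peak in their window. Over a promoter window a WT peak was found at 2 of 4 myoblast markers that have one (Des and Chrna1) and at Cebpa among the others. In KO the same 3 promoters had a peak. Over all protein-coding genes with a window, 43.0% had a WT peak there and 39.5% a KO peak.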

How the data were processed

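The series has 12 C2C12 samples in 4 groups of 3. The lists analysed are those of growth medium, and the day 2 samples were not analysed here. Per the submitters' processing notes the build is mm10; the aligner, peak caller and rule for removing calls are not given in the sources used here. Every deposited peak name holds the label of replicate 1. The deposited fold is the authors' ratio of a peak to its background, and the deposited −log10 q is the authors' too. The summit is a deposited offset from the peak start.

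Classes came from the deposited specific and shared lists, which equalled an overlap of at least 1 bp. Gene positions and promoters came from RefSeq tables of GRCm38.p6. A missing call number is a gap in the numbering of retained peaks around a position. No test between genotypes was made, since each list comes from 1 library, and intervals cover counting error only. The functions passed 3 of 3 checks on simulated data (Python 3.11.15, numpy 2.4.6, pandas 2.3.3, scipy 1.17.1). The members and gene lists were chosen with earlier results of these data known. All 10 genes were named, with every specific peak, the promoter peaks, the highest peak of each list and Hippo genes with at least 2 specific peaks. Motifs within peaks were not computed, for lack of a genome. Alternatives varied the overlap rule, peak threshold, gene window, gene assignment and peak position. The Hippo ones were added after the data were seen.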

Additional observations from a re-analysis of the deposited data

How the results depend on the processing

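No paired analysis was possible because each peak list comes from replicate 1 of its genotype, and for the same reason no replicate could be left out. For the 10 genes the WT specific share stayed within its interval of 13.2 to 40.3% under 7 of 8 alternatives, from 16.7% (both lists at a −log10 q of at least 10) to 34.1% (reciprocal overlap of 50%), and was 3.70% for peaks at or above the list median. The KO specific share stayed within its wide interval of 0.720 to 19.7% under 7 of 8, from 5.88% (summit in place of centre) to 14.7% (reciprocal overlap of 50%). It was 0% for peaks at or above the list median. Taking only peaks at or above that median drops those below it, where 10 of the 11 WT specific and 2 of the 2 KO specific peaks lay. Windows of 50 kb raised the counts to 67 WT and 53 KO peaks. They gave Tead3 3 WT specific and 1 KO specific peaks, and Tead1 and Vgll2 1 KO specific peak each. Reciprocal overlap gave WT specific counts of 4 at Amotl2 and 3 each at Tead1 and Vgll4, and assignment by nearest gene end gave 4 at Tead1 and 3 at Amotl2. KO specific counts with reciprocal overlap rose to 2 at Vgll4 and to 1 each at Tead1 and Amotl2. By nearest gene end, Tead1 and Vgll2 had 1 KO specific peak each. Under a −log10 q of at least 10, Tead1 had 3, Amotl2 and Tead4 had no WT specific peak, Vgll4 and Wwtr1 had 1 each, Vgll4 lost its KO specific peak and the KO peak of Vgll2 became specific. Counting the gene body only left Tead1 and Vgll3 with none and Tead4 with 1.

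For the other Hippo genes the WT specific share was 32.2% with reciprocal overlap and 8.70% at or above the median, and the KO specific share 17.6% and 0%. Their counts were 53 WT and 47 KO peaks in gene bodies, and 136 and 115 in windows of 50 kb. The cause of the change with reciprocal overlap was not tested. Unknown depth limits every statement that a peak is absent.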

Other observations

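The unlabelled extra column of the specific lists marked 1 of the 11 WT specific peaks, the one at chr3:57504823-57505070 in Wwtr1, and neither of the 2 KO specific peaks. Over the lists 10.7% of WT specific and 2.22% of KO specific peaks were marked, and no source used here gives its meaning.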
